A study of Homo sapiens with 2 samples.

Results

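The genes described here encode the heat shock proteins and their DNAJ and BAG co-chaperones. They were taken by name, as every probe set with exactly 1 platform gene symbol beginning with DNAJ, HSPA, HSPB, HSPD, HSPE, HSPH, HSP90 or BAG plus a digit, together with CRYAB. This gave 95 probe sets of 89 genes, out of 18417 genes measured, and 13 of the 89 are pseudogenes in the RefSeq gene table. Total RNA came from H1299, an established human line from a non-small cell lung carcinoma in which p53 is missing. The design compared 1 Affymetrix array of cells with p53 with 1 array of a negative control. The sources used here do not say how p53 was supplied, for how long, or what the negative control received.

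Chaperones keep proteins folded and prevent their aggregation. HSP70 proteins (HSPA genes) bind and release unfolded segments in a cycle of ATP hydrolysis, which DNAJ proteins start and nucleotide exchange factors, among them the HSP110 group and the BAG proteins, complete. HSP90 finishes the folding of kinases and receptors, HSP60 and HSP10 (HSPD1 and HSPE1) form the mitochondrial chaperonin, and small heat shock proteins (HSPB genes and CRYAB) hold unfolded proteins without using ATP. Many of these genes are induced by the heat shock factor HSF1, and a set of those in the endoplasmic reticulum (ER) is induced by the unfolded protein response.

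Each value is a log2 intensity, and each difference is the value with p53 minus that in the negative control, so that 1 is a 2-fold higher level. Where a gene is said to read a pair of values, these are its log2 intensities, and levels are not compared between genes, since probe sets differ in brightness. With 1 array per group there is no replicate error and no test, and every statement describes these 2 arrays. A 2-fold limit is used as a rule of size. In RNA of whole cultures, fewer cells with a transcript and less of it per cell cannot be told apart. CDKN1A, the p21 gene, read 12.66 with p53 and 9.18 in the control, and MDM2, the ubiquitin ligase of p53, at 13.59 and 10.87, which goes with the labels of the arrays. Of the markers listed for epithelial cells or carcinoma lines, KRT8 (12.84 and 12.52) and KRT18 (12.47 and 12.78) lay well above 7.38, the median of all probe sets, in both arrays. VIM, which is not particular to epithelial cells, did so too (12.92 and 13.07), whereas EPCAM was listed at 5.72 in both. PTPRC, CD3E and CD14, the 3 measured blood markers, each had the same value below 7.38 in both arrays.

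With p53, 9 of the 89 chaperone genes were at least 2-fold higher and 2 were at least 2-fold lower. The 9 higher genes were CRYAB, DNAJC6, DNAJC21, BAG3, HSPA4L, DNAJC18, DNAJB5, DNAJC8 and DNAJC5, and the 2 lower genes were BAG2 and DNAJC9. The 9 make 10.1% of the chaperone genes, where 5.22% of all 18417 genes were at least 2-fold higher. The 2 make 2.25%, where 3.7% of all genes were at least 2-fold lower. Both shares describe these arrays, and no test was possible. The median difference was 0.00 over the 89 genes and 0.00 over all genes, which the many equal values largely set. Without equal values the medians were -0.01 and -0.07. Of the 89, 21 (23.6%) were listed with identical values in the 2 arrays, against 35.3% of all genes. Of the other 68, 33 were above 0 (37.1% of the 89, where 26.9% of all genes were) and 35 below it (39.3%, where 37.8% were). At 1.5-fold, 12 were higher (13.5%, where 9.4% of all genes were) and 7 lower (7.87%, where 10.1% were).

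Most equal values belonged to dim chaperone genes. Of the 89, 63 had a mean of both arrays at or above 7.38. Of these, 8 were 2-fold higher (12.7%, where 7.7% of all such genes were) and 2 were 2-fold lower (3.17%, where 5.67% were). The remaining 26 held 17 of the 21 equal values, and CRYAB was the 1 gene among them that was 2-fold apart. The plot of the chaperone genes among all genes shows this spread against intensity.

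**Figure D1:**
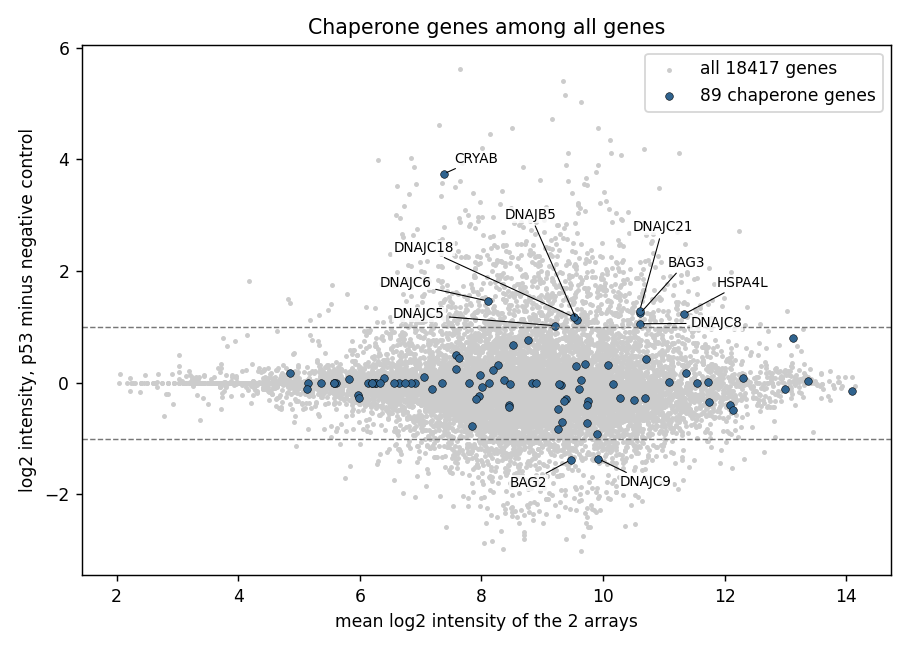
Each point is a gene, with its mean log2 intensity over both arrays on the x axis and its difference (log2 intensity, p53 minus negative control) on the y axis; grey points are all 18417 genes, blue points the 89 chaperone genes, and dashed lines mark 2-fold. The 11 named genes lie outside the dashed lines, with CRYAB alone above 3, and most dim chaperone genes lie on or near 0.

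The small heat shock proteins held the largest difference of the set. CRYAB, which encodes alphaB-crystallin, a chaperone of lens and muscle that also binds intermediate filaments, read 9.25 with p53 and 5.51 in the control. That is a difference of 3.74, or 13.4-fold, and the 25th highest of the 18417 genes. The control value was under the 25th percentile of the probe sets (5.97), and counted from there the difference was 3.28, or 9.69-fold. HSPB1, the HSP27 gene, read 13.53 with p53 and 12.72 in the control, a difference of 0.80 (1.74-fold).

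The other 5 small heat shock genes with a probe set of their own each had the same value in both arrays. HSPB8, the partner of BAG3 in the disposal of aggregated proteins, was listed at 6.20, the muscle genes HSPB3 and HSPB7 at 5.57 and 6.33, HSPB6 at 7.35 and the testis gene HSPB9 at 6.20. All 5 lay below the median of all probe sets. A probe set shared by HSPB2 and HSPB2-C11orf52 read 6.54 in both arrays. Among markers of striated muscle and lens, where small heat shock proteins are abundant, CKM (6.62), DES (7.53), MYH7 (6.91) and TTN (5.66) were also equal in both arrays, and the lens filament gene BFSP1 had a difference of 0.23. Of 3 airway markers, SCGB1A1 was higher with p53, at 8.53 against 7.09, and NKX2-1 (6.43) and SFTPC (6.61) were equal in both arrays. Whether the SCGB1A1 difference has a part in that of CRYAB was not tested.

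**Figure D2:**
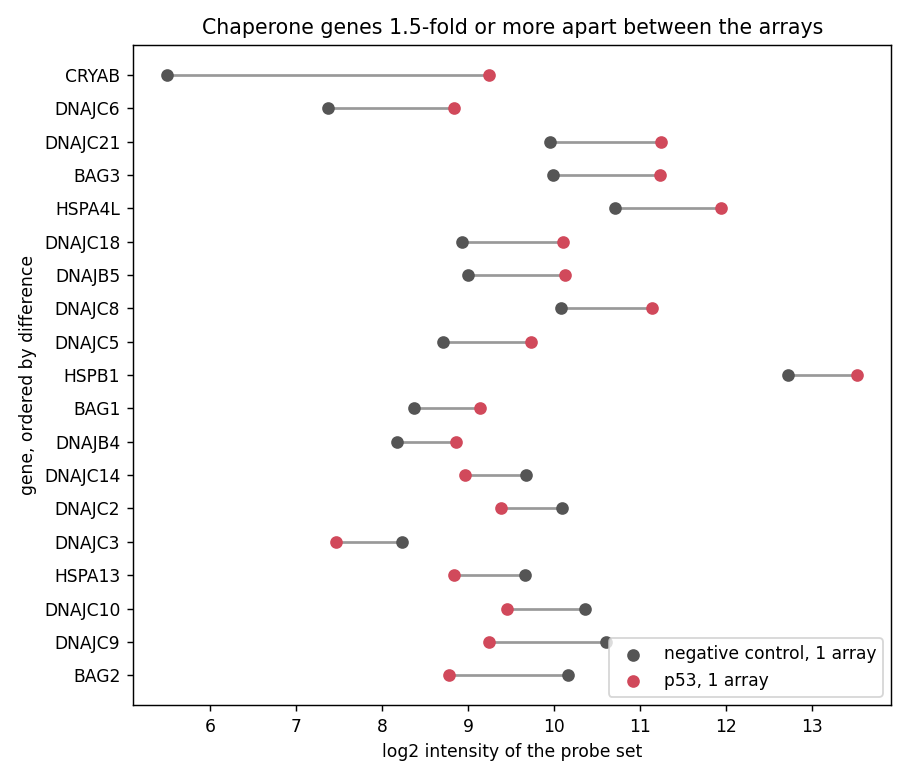
Log2 intensity (x axis) in the p53 array (red) and the negative control array (grey) of the 19 chaperone genes that were at least 1.5-fold apart, ordered by difference from BAG2 at the bottom to CRYAB at the top. The line of CRYAB, from 5.51 to 9.25, is the longest, 12 genes have the red point to the right, and 7 have it to the left.

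None of the 10 HSPA genes outside the HSP110 group that had a probe set of their own was 2-fold apart, and their median difference was -0.07. HSPA1A and HSPA1B, the main heat-inducible HSP70 genes, are not among the 10, because they share their probe sets. The 5 probe sets assigned to this pair, which cannot be given to either gene, were higher with p53 by 0.60 to 0.71, on the other side of 0 from that median. Some of the 5 duplicate each other's values. HSPA8, the constitutive cytosolic HSP70, read 14.03 with p53 and 14.17 in the control. HSPA5, the ER member also called BiP, read 12.35 and 12.25, and HSPA9, the mitochondrial member, at 11.90 and 12.29. These 3 housekeeping genes lay within 0.40 of their control values.

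The heat-inducible HSPA6 had a difference of 0.45, at 7.86 and 7.41, both near the median of all probe sets, and a probe set it shares with HSPA7 had a difference of 0.47. HSPA12A, a distant relative, read 7.83 and 7.34, a difference of 0.50. HSPA13, a microsomal member, was the lowest of the class at 8.84 with p53 against 9.66 in the control, with a difference of -0.82 (1.77-fold lower). HSPA14, which works on the ribosome with the DNAJC2 protein, read 8.24 and 8.67 (-0.44), and HSPA2, best known from testis, at 8.25 and 8.66 (-0.40). HSPA1L (6.84) and HSPA12B (7.80) each had 1 value in both arrays. HSP70 genes are similar in sequence, and their probe sets may read more than 1 of them.

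In the HSP110 group, the exchange factors of HSP70, 1 of 3 genes was 2-fold higher. HSPA4L read 11.94 with p53 and 10.72 in the control, a difference of 1.23 (2.34-fold). Its relatives HSPH1 (11.45 and 11.27) and HSPA4 (11.10 and 11.08) differed by 0.18 and 0.02, so the group as a whole did not share the difference of HSPA4L.

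The HSP90 genes were close in both arrays. HSP90AA1, the inducible cytosolic form, read 13.39 with p53 and 13.35 in the control, and HSP90AB1, the constitutive form, at 12.94 and 13.06. HSP90B1, the ER form also called GRP94, read 11.90 and 12.39, a difference of -0.49. The other 11 loci of the class are pseudogenes, whose probe sets may also read the parent genes. They ran from -0.27 (HSP90B3P) to 0.34 (HSP90AA6P), and 5 of them, HSP90AB2P, HSP90AB4P, HSP90AB5P, HSP90AB6P and HSP90B2P, were equal in both arrays. HSP90AA2P, HSP90AA4P, HSP90AA5P and HSP90AB3P lay between them at 0.02, 0.13, 0.18 and -0.03.

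Both chaperonin genes were below their control values. HSPD1 read 11.58 with p53 and 11.92 in the control (-0.34), and HSPE1 at 9.20 and 9.52 (-0.32). They lie next to each other in the RefSeq gene order and were the 1 pair of the 89 that are neighbours among protein-coding genes there. Their differences were 0.02 apart, and neither reached 1.5-fold. HSPBP1, an exchange factor of HSP70, and HSPBAP1, an HSP27-associated protein gene, share the HSPB letters but are no small heat shock genes, and differed by -0.02 and 0.26.

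**Figure D3:**
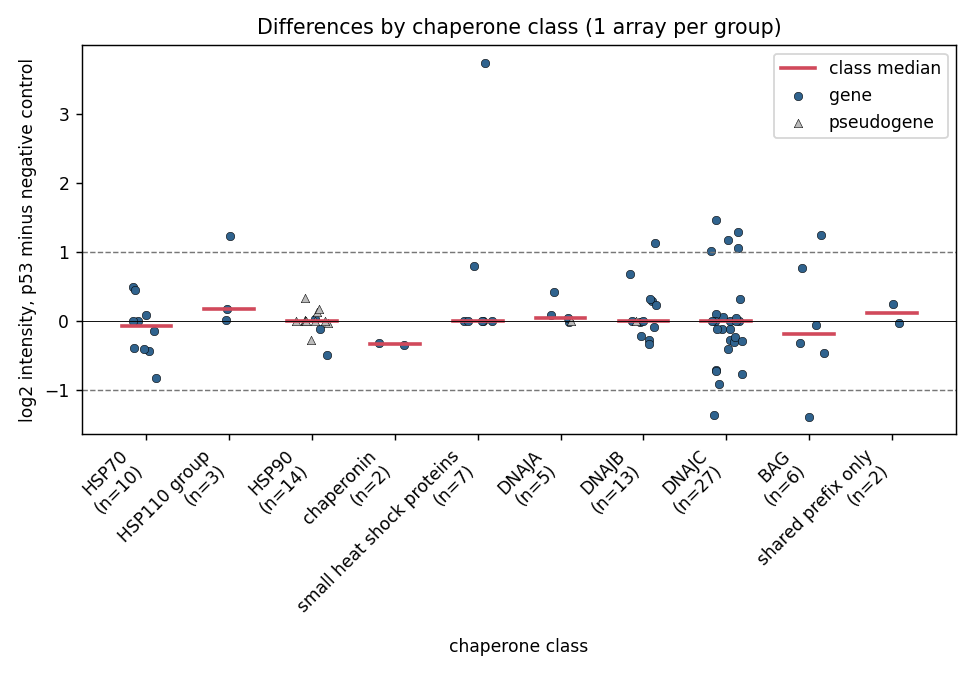
Difference in log2 intensity (y axis, p53 minus negative control) of every chaperone gene by class (x axis); circles are genes, triangles pseudogenes, red bars class medians, and dashed lines mark 2-fold. Genes past the dashed lines are found among the HSP110 group, small heat shock proteins, DNAJB, DNAJC and BAG classes, and none among HSP70, HSP90, chaperonin or DNAJA.

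Heat shock factor binds repeats of a GAA unit in alternating orientation, and the promoters of the chaperone genes were searched for it because HSF1 is their best known regulator. The letters searched were GAANNTTCNNGAA and its reverse complement TTCNNGAANNTTC, which cover both strands, in the 250 bases before each RefSeq start (GRCh38.p14). Of the 89 genes, 68 had a promoter in the RefSeq table, and 6 of the 68 (8.82%) held the 3-unit element, against 152 of 27305 genes (0.557%). Below are 3 of the 6, chosen to span the constitutive HSP70 gene, the inducible HSP70 gene and the inducible HSP90 gene. Each reads 5′ to 3′ on the strand of the gene up to the base before the start, with the element in capitals.
HSPA8, chr11:123062137-123062386, minus strand: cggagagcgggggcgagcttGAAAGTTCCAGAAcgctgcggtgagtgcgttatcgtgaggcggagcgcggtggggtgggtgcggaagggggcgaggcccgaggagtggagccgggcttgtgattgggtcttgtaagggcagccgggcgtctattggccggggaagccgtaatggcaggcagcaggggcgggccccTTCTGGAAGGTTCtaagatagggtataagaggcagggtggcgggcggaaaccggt
HSPA6, chr1:161524290-161524539, plus strand: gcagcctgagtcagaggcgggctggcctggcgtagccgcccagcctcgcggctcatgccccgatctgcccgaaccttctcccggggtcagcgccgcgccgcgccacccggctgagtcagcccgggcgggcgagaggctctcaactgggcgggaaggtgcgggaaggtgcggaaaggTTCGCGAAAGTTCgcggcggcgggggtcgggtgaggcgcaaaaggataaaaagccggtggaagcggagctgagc
HSP90AA1, chr14:102087045-102087294, minus strand: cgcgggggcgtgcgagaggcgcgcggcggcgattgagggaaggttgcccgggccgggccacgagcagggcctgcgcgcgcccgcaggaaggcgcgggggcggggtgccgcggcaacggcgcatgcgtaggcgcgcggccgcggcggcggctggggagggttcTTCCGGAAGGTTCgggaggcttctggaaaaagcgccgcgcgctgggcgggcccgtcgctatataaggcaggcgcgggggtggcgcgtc

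The 6 genes with the element were HSPA6 (0.45), HSP90AA1 (0.04), DNAJB6 (-0.01), HSP90AB1 (-0.12), HSPA8 (-0.14) and HSPD1 (-0.34), with a median difference of -0.06. None of the 6 was 2-fold apart, where 5.22% of all genes were 2-fold higher and 3.7% lower, so 6 genes are too few to read this. All 8 of the 2-fold higher genes that had a promoter in the table, and both 2-fold lower genes, lacked these letters in the window. So did 62 of the 68 genes, so nothing particular to the 2-fold genes can be read from this. The shorter 2-unit forms GAANNTTC and TTCNNGAA, which are contained in the 3-unit form, were held by 19 of the 68 genes (27.9%) and by 14.0% of all genes. Among the 8 genes that were 2-fold higher, HSPA4L alone held a 2-unit form (12.5%), and among the 2 lower genes, BAG2 did (50%). HSPB1 was also among the 19, as were HSPB3, HSPB6 and HSPB8, which were equal in both arrays. The full p53 site of paired consensus elements at most 13 bases apart, without a mismatch, was found in none of the 68 windows and in 9 of the 27305. CRYAB is not among the 68. A match is a description of letters, and a window without one says nothing about either factor.

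Of the 5 DNAJA loci, the general co-chaperones of cytosol and mitochondrion, none was 2-fold apart. DNAJA1, the main cytosolic form, read 10.92 with p53 and 10.50 in the control (0.42). DNAJA2 (9.26 and 9.28), the mitochondrial DNAJA3 (9.65 and 9.61) and DNAJA4 (6.44 and 6.35) lay within 0.10 of their control values, and the pseudogene DNAJA1P5 was equal in both arrays.

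Among 13 DNAJB loci, DNAJB5 was the 1 gene at least 2-fold higher, at 10.13 with p53 and 9.00 in the control (1.13, 2.19-fold). Its relative DNAJB4, a partner of HSP70 in the cytosol, read 8.86 and 8.18 (0.68, 1.60-fold). DNAJB1, the HSP40 gene and a further relative, read 10.55 and 10.83, a difference of -0.28 in the other direction. The other loci of the class ran from -0.33 to 0.32, with the ER genes DNAJB11 at the lower end (9.59 and 9.92) and DNAJB9 at the upper end (8.43 and 8.11). The brighter of the 2 probe sets of DNAJB6, an inhibitor of protein aggregation, differed by -0.01 and the dimmer by -0.17.

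The DNAJC genes, which share the J domain but mostly serve specialised tasks, numbered 27, of which 5 were at least 2-fold higher (18.5%, where 5.22% of all genes were) and 1 was at least 2-fold lower (3.70%, where 3.7% were). At 1.5-fold, 5 were higher and 5 lower (18.5% each, where 9.4% and 10.1% of all genes were). Of the 27, 9 were above 0 and 13 below, so the class had no common direction. DNAJC6 encodes auxilin, which brings HSP70 to clathrin-coated vesicles to remove the coat, and read 8.84 with p53 and 7.37 in the control (1.47, 2.76-fold). GAK, its widely expressed relative and no member by name, read 10.94 and 10.13 (0.81, 1.76-fold), short of 2-fold. DNAJC21, a maturation factor of the large ribosomal subunit, read 11.25 with p53 and 9.96 in the control (1.29, 2.45-fold).

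DNAJC18, a J protein of the ER membrane, read 10.11 with p53 and 8.93 in the control (1.18, 2.26-fold). DNAJC8, which is associated with pre-mRNA splicing, read 11.14 and 10.08 (1.06, 2.08-fold). DNAJC5, the cysteine string protein of secretory vesicles, read 9.73 and 8.71 (1.02, 2.03-fold), the smallest difference among the 9, and fell short of 2-fold (0.97) when 32 was added to the linear intensities. These 5 DNAJC genes thus belong to different tasks, by their known roles.

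DNAJC9, a co-chaperone of histones H3 and H4, was lower with p53, at 9.24 against 10.60 in the control (-1.36, 2.57-fold lower). Lower values of less than 2-fold, named after they were seen, were those of DNAJC10 (9.45 and 10.36, -0.91), a disulfide reductase of the ER, and DNAJC3 (7.47 and 8.23, -0.77), an ER co-chaperone. DNAJC2, the partner of HSPA14 on the ribosome, read 9.38 and 10.10 (-0.72), and DNAJC14 at 8.97 and 9.68 (-0.71). The other 17 DNAJC genes ran from -0.39 (DNAJC11) to 0.33 (DNAJC19), and 5 of them were equal in both arrays. The dimmer probe set of DNAJC19, a gene of mitochondrial protein import, differed by 0.40.

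The BAG family held 1 gene 2-fold higher and 1 gene 2-fold lower. BAG3, which couples HSP70 to small heat shock proteins and to selective autophagy, read 11.23 with p53 and 9.99 in the control (1.24, 2.37-fold). BAG2, an inhibitor of the HSP70-bound ubiquitin ligase CHIP, read 8.78 and 10.16 (-1.38, 2.60-fold lower). BAG1, which links HSP70 to the proteasome, read 9.14 and 8.38 (0.77, 1.70-fold). BAG4, BAG5 and BAG6 differed by -0.46, -0.05 and -0.31. The 3 BAG6 probe sets, some of which duplicate each other's values, had differences that spanned 0.01. The median of the 6 genes was -0.18, and the family had no common direction.

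The genes were also grouped by known inducibility and compartment in place of family. Of 17 listed heat-inducible genes, 15 had a probe set of their own, and the jointly measured HSPA1A and HSPA1B are left out. The list also holds HSPA8 and HSP90AB1, named above as constitutive. It was chosen with earlier results of these data known, so its shares only describe the list. CRYAB, BAG3 and HSPA4L were at least 2-fold higher (20.0%, where 5.22% of all genes were), none was 2-fold lower (where 3.7% were), and the median was 0.18. Of the other 12, left after these 3 were taken out by their own difference, 6 were above 0, 5 below and 1 equal. Their median was 0.02, and HSPA8 and HSP90AB1 were among the 5 below. HSPB1 and DNAJB4 were the next highest of this group, and HSPD1 and HSPE1 were its lowest. Of 12 genes of the ER, DNAJC18 was 2-fold higher (8.33%, where 5.22% of all genes and 7.7% of genes with a mean at or above 7.38 were). None was 2-fold lower (where 5.67% of genes with such a mean were), and the median was -0.19. Of the 12, 7 were below 0 (58.3%, where 50.7% of genes with a mean at or above 7.38 were). DNAJC10, HSPA13 and DNAJC3 were at least 1.5-fold lower (25%, where 15.3% of genes with such a mean were). Nothing particular to the ER genes can be read from these shares of 12 genes, and HSPA5 had a difference of 0.09. Of 8 mitochondrial genes none was 2-fold apart, and they ran from -0.39 to 0.33 with a median of -0.16.

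**Figure D4:**
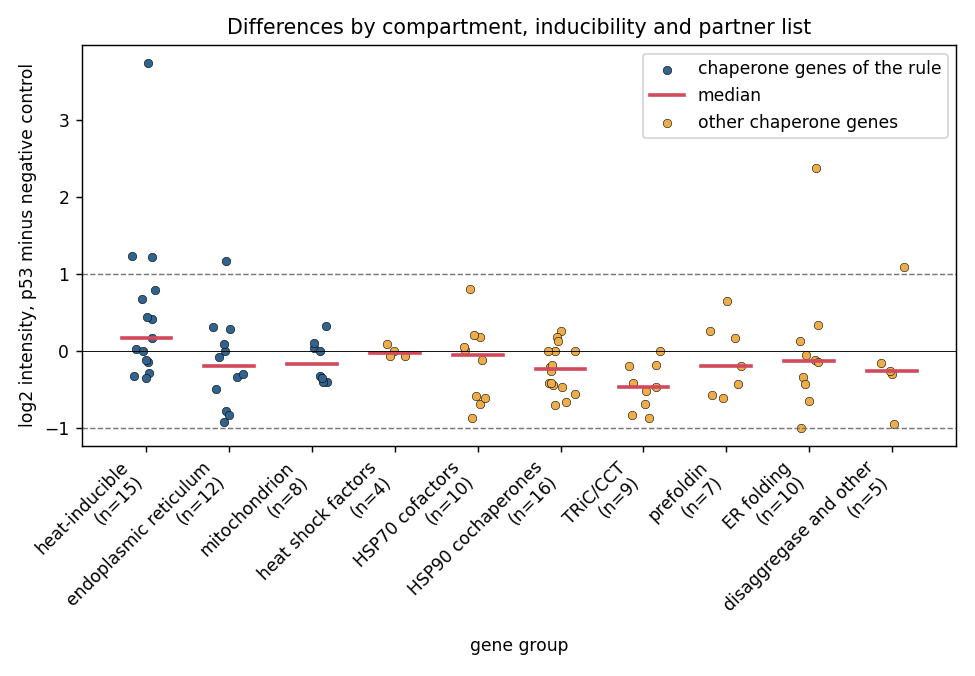
Difference in log2 intensity (y axis, p53 minus negative control) of chaperone genes by inducibility or compartment (blue) and of other chaperone genes by list (yellow); red bars are medians and dashed lines mark 2-fold. The heat-inducible median is 0.18, the ER and mitochondrial medians are below 0, and all TRiC/CCT points lie at or below 0.

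Other folding genes, which the naming rule leaves out, were read from 7 lists with 61 measured genes. Of these, ERO1B and TOR1A were at least 2-fold higher (3.28%, where 5.22% of all genes were) and none was 2-fold lower, 40 were below 0, and the median was -0.19. The heat shock factor HSF1 read 10.26 with p53 and 10.17 in the control, HSF4 at 7.88 in both, HSF5 at 5.93 and 5.98, and HSBP1, a binding protein of the factors, at 9.43 and 9.49. These 4 of the 6 listed genes, the ones with a value here, differed by less than 0.10, and HSF2 was not analysed here. All 9 subunit genes of the cytosolic chaperonin TRiC/CCT, which folds actin and tubulin, lay at or below 0, with a median of -0.46, and CCT2 (-0.86), CCT5 (-0.83) and CCT6A (-0.69) were its lowest. By comparison, 37.8% of all genes were below 0 and 35.3% were equal, and of genes with a mean at or above 7.38, 50.7% were below 0.

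Among 10 HSP70 cofactors, GRPEL2 (-0.86) and GRPEL1 (-0.69), the exchange factors of mitochondrial HSPA9, and GAK (0.81) had the largest differences, and the list median was -0.05. Of 16 HSP90 co-chaperones 10 were below 0 (62.5%, where 50.7% of genes with a mean at or above 7.38 were), and the median was -0.23. The lowest were SUGT1 (-0.69), FKBP4 (-0.66) and TRAP1 (-0.55), the last a mitochondrial HSP90. The prefoldin complex hands actin and tubulin to TRiC/CCT. Its list of 7 genes, which also takes in the prefoldin-like gene URI1, had PFDN4 at 0.65, URI1 at -0.60 and PFDN6 at -0.56. The ER oxidase genes differed from each other: ERO1B read 9.21 with p53 and 6.83 in the control (2.38, 5.22-fold higher), and ERO1A at 8.88 and 9.87 (-0.99). PDIA6, a protein disulfide isomerase, followed at -0.64. TOR1A and TOR1B, paralogous ATPases of the ER and nuclear envelope, were also opposed, at 1.09 and -0.94, and CLPB, a mitochondrial disaggregase, differed by -0.30.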

How the data were processed

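Total RNA extracted with Trizol was labelled with biotin and hybridised to 1 Affymetrix array per group, per the labels' protocols. The deposited log2 intensities, 1 per probe set, came from RMA (robust multi-array average), per the submitters' processing notes; the log2 scale was read from their range. Sorted values of the arrays were at most 0.192 apart, so a shift in total RNA would not be seen. Genome build and software version: not given in the sources used here.

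Probe sets were named by platform annotation: 19460 of 33297 had 1 symbol, 1754 several and 12083 none. For a gene with several probe sets the one with the highest mean was used, and no filter was applied. With 1 array per group no p-value was computed, and the number of arrays limits the precision. Detection calls were not used. Named were all 2-fold chaperone genes, the 3 largest differences of each class, all members of the small classes, and the 3 largest of each other list with the heat shock factors. The naming rule, classes and lists were chosen with earlier results of these data known. Gene biotypes, gene order and promoters came from RefSeq tables (GRCh38.p14). Alternatives covered the fold limit, dim-gene filters, centring, a lowess trend (span 0.3), probe set averaging, quantile normalization, an offset of 32 and a floor. The procedure was run on simulated data with large planted differences and little noise. That run does not bear on differences near the 2-fold limit. Computation was in Python 3.11.15 with pandas 2.3.3, numpy 2.4.6, statsmodels 0.14.6 and matplotlib 3.10.9.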

Additional observations from a re-analysis of the deposited data

Results flagged for a closer look

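Signal lay outside the gene results in probe sets assigned to several symbols. Of 12 such probe sets that include a heat shock, DNAJ or BAG symbol, 5 were at least 1.5-fold apart, all higher with p53, by 0.60 to 0.71 on the log2 scale. By comparison, 9.4% of all genes were at least 1.5-fold higher and 10.1% lower. Some of the 5 duplicate each other's values (11.19 with p53 and 10.48 in the control), so they are not 5 separate readings. All 5 are assigned jointly to HSPA1A and HSPA1B, a near-identical pair of heat-inducible HSP70 genes, so they are not independent, and they carry no replicate error.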

How the results depend on the processing

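The 9 higher and 2 lower chaperone genes at 2-fold became 12 and 7 at 1.5-fold, and 1 and 0 at 3-fold, where CRYAB alone was left. Under the other alternatives the counts stayed within 1.5 times; CRYAB is not counted by filters on the mean of both arrays, nor DNAJC6 at the 75th percentile. The CRYAB difference was 3.05 with an offset of 32. Class medians moved by over 0.1 in these cases. With genes whose mean reached the median of the probe sets they were 0.24 for DNAJB, -0.17 for DNAJC and 0.80 for small heat shock proteins, the last being HSPB1 alone. At the 75th percentile they were -0.31 for BAG, -0.28 for DNAJC, -0.27 for HSP70 and 0.80 for small heat shock proteins. Without genes equal in both arrays they were 0.12 for DNAJB, -0.12 for DNAJC, -0.27 for HSP70 and 2.27 for small heat shock proteins (CRYAB and HSPB1). Without pseudogenes, a choice made after seeing the data, the HSP90 median was -0.12. These shifts follow from the genes left out. No paired analysis was possible because each group has 1 array. Array number limits all values, and dim signals limit CRYAB.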
